A study of Mus musculus with 6 samples.

Results

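The Rab family of small GTPases was examined in cultured mouse macrophages that had been differentiated from bone marrow (BMDMs). Members were the genes whose symbol is Rab followed by a number and at most 1 letter and 1 further digit, so that Rab effectors and regulators were left out. This gave 58 genes of 16519 in the table, and all 58 are protein coding in RefSeq. RNA sequencing covered 3 libraries of the genotype Trmt61a f/f LysM-Cre (KO) and 3 of the genotype Trmt61a f/f, without Cre (WT). Both genotypes thus carry the floxed allele, and Cre is present in KO alone, so that the loss of Trmt61a and the presence of Cre cannot be told apart. Trmt61a is the catalytic component of the tRNA N1-methyladenosine writer. LysM-Cre is a recombinase inserted into the lysozyme gene Lyz2, which is active in myeloid cells. The series title concerns translation of interferon associated genes, and these libraries measure transcript levels only. Whether the 3 libraries per genotype stem from separate animals is not in the labels, and all p-values then refer to the spread among the libraries at hand, whose source may be technical.

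Rab proteins are switches on membranes. They are loaded with GTP by guanine nucleotide exchange factors (GEFs), recruit effectors such as tethers and motors while active, and are shut off by GTPase-activating proteins (GAPs). GDP dissociation inhibitors (GDIs) then carry the lipid-modified inactive form through the cytosol. In macrophages, a particle taken up by phagocytosis moves from compartments marked by Rab5 to compartments marked by Rab7, which fuse with lysosomes.

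Trmt61a was lower in every KO library. In counts per 1e6 counts of the library (CPM), it read 0.530, 0.755 and 0.539 in KO 1 to 3 against 4.96, 3.89 and 5.06 in WT 1 to 3. The log2 fold change was -2.92, standard error 0.28 (edgeR adjusted p = 0.00219). Library totals lay between 37021855 and 41033179 counts, and the Rab members took between 0.512% and 0.527% of the counts of each library. The macrophage marker Csf1r averaged 4444 ± 609 CPM over KO libraries and 4464 ± 420 over WT libraries (SD, n = 3). Lyz2, the gene that carries the Cre insertion, was lower in KO at a log2 fold change of -0.99 (edgeR adjusted p = 0.00735). Summed neutrophil markers ran from 1607 to 2571 CPM in KO and from 1617 to 2941 CPM in WT, with KO 1 and WT 2 the lowest library of their genotype. Summed lymphocyte markers lay between 8.19 and 14.0 CPM and dendritic cell markers between 3.41 and 4.45 CPM in all libraries. Summed stromal and endothelial markers ran from 123 to 261 CPM in KO and from 119 to 177 CPM in WT. Of the 7 tested genes of that list, 6 had a log2 fold change above 0 and 0 had an adjusted p under 0.05 (edgeR). The sum of 7 megakaryocyte and erythroid markers was between 148 and 160 CPM in KO and between 124 and 139 CPM in WT. Most of it was Pf4. The part of other cells in the Rab values was not tested, and in bulk RNA fewer cells of a type cannot be told apart from less RNA per cell.

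BMDMs expressed most of the family, and the abundance was concentrated in a few members. Of the 58 genes, 38 had a mean of at least 10 CPM and 10 had a mean under 1 CPM. To compare genes with each other, levels were divided by exonic length and are given as CPM per kilobase. The 6 most abundant members, Rab7, Rab5c, Rab1a, Rab8b, Rab14 and Rab1b, made up 50.6% of the summed CPM per kilobase of the family. Rab7, which directs late endosomes and phagosomes to lysosomes, led the family at 264 ± 8.73 CPM per kilobase in KO and 266 ± 11.4 in WT (SD, n = 3). Its lowest library, at 255 CPM per kilobase, lay above the highest library of any other member. Rab5c, a GTPase of early endosomes, followed at 167 ± 7.97 CPM per kilobase in KO and 165 ± 9.96 in WT (SD, n = 3).

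Below these 2 genes the order was partly unresolved. Rab1a, which acts between endoplasmic reticulum (ER) and Golgi, and Rab8b, which acts in transport to the cell surface, averaged 131 and 125 CPM per kilobase with library values that overlapped. Rab14, a GTPase of traffic between Golgi and endosomes, and Rab1b averaged 98.0 and 97.2 and also overlapped. Then came Rab31 at 80.2, Rab7b at 67.9, Rab5b at 63.2, Rab10 at 59.5 and Rab2a at 53.5 CPM per kilobase. Among these, Rab31, Rab7b and Rab5b each overlapped the next lower member, and Rab10 and Rab2a did not. Dividing by the exonic length over all annotated transcripts moved Rab14 out of the first 6, with Rab31 taking its place, because long transcripts of Rab14 are annotated. At the other end, Rab9b was at 0 counts in 3 libraries and at 1 count in the others.

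**Figure D1:**
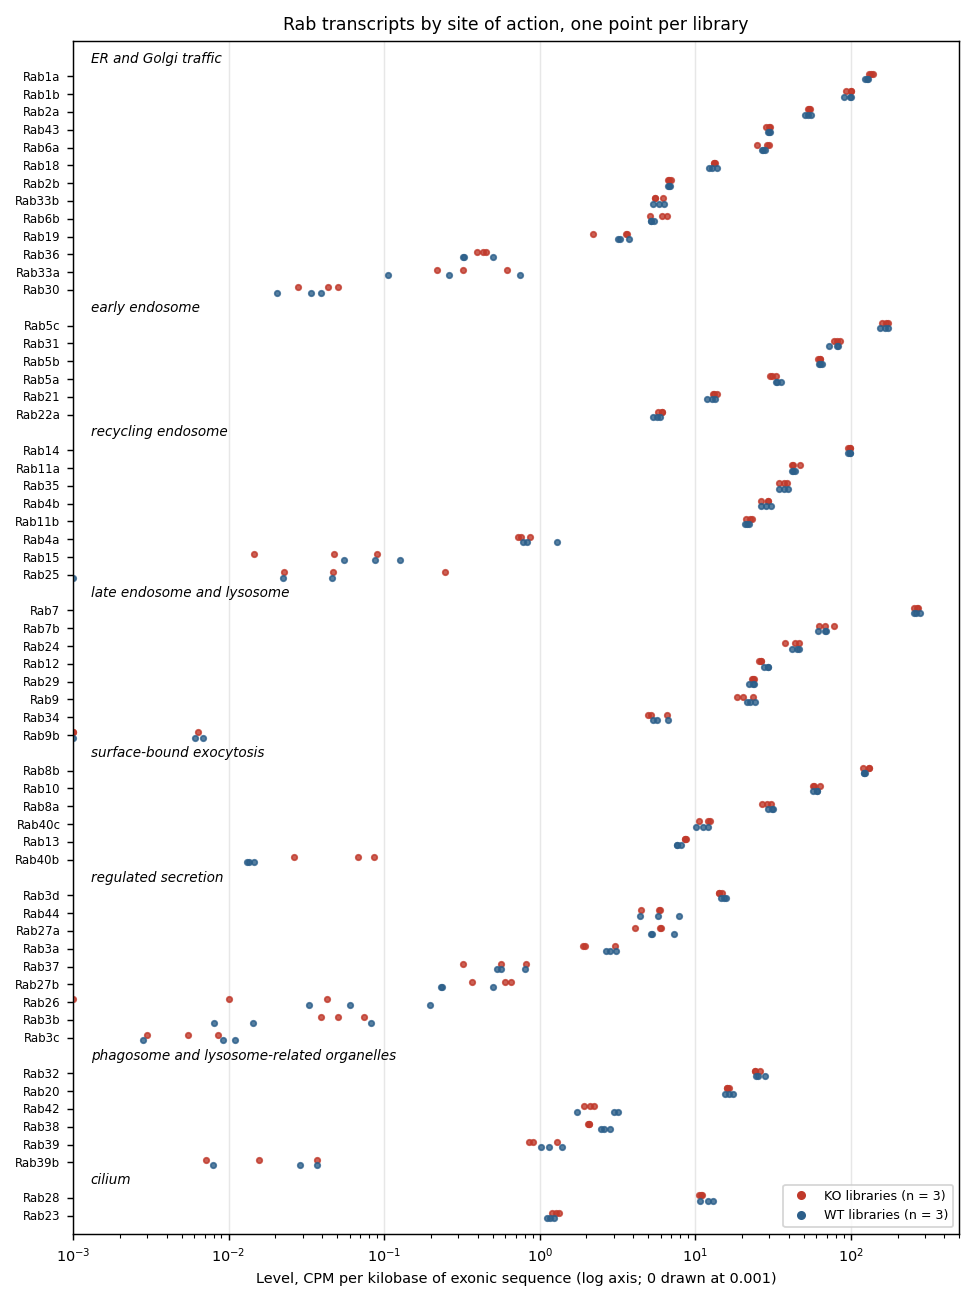
Level of each of the 58 Rab transcripts in CPM per kilobase of exonic sequence (log axis), grouped by known site of action, with a point for each KO and each WT library. Rab7 lies to the right of all other members, near 265 CPM per kilobase, and the points of KO and WT run together for most members above 1 CPM per kilobase.

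By site of action, members of the late endosome and lysosome made up 26.1% of the summed level per kilobase. Most of that share was Rab7, at 265 CPM per kilobase, with Rab7b next in the group at 67.9. Members of ER and Golgi traffic made up 21.4% and those of the early endosome 20.7%. All 6 early endosome members were above 10 CPM. In contrast, the 9 members of regulated secretion contributed 1.72%, and 3 of them, Rab26, Rab3b and Rab3c, had means under 1 CPM. The highest of that group was Rab3d at 14.9 CPM per kilobase, and Rab3a, which serves synaptic vesicles in neurons, was at 2.58. Related genes were unequal in the same way in all libraries. Rab2a stood between 7.55 and 8.29 times above Rab2b per kilobase, and Rab31 between 12.7 and 14.7 times above Rab22a. Rab4b stood between 20.6 and 38.9 times above Rab4a, the lowest ratio coming from WT 1, where Rab4a was at 2.28 CPM against 1.27 to 1.52 CPM in the other libraries. In Rab4b, 80.3% of the 50-base words of the transcript sequence also occur in the overlapping gene Gm21983, and exons of Rab2b overlap Tox4 on the opposite strand, so levels of both are uncertain. Rab11a and Rab11b were closer, at a ratio between 1.83 and 2.21. These ranges cover the libraries and not the choice of length. With the exonic length over all annotated transcripts, Rab2a averaged 53.5 and Rab2b 4.74 CPM per kilobase. Rab4b was then at 17.3 and Rab4a at 0.875, and Rab11a at 33.7 and Rab11b at 21.9. Rab31 and Rab22a stayed at 80.2 and 5.83.

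The main question was whether any Rab transcript differed between KO and WT. None of the 51 members with enough counts to be tested passed, against 0.0317% of all 12605 tested genes (adjusted p under 0.05 in the quasi-likelihood test of edgeR). The smallest adjusted p of any member was 0.999949. At an unadjusted p under 0.05 there were 0 members, against 3.10% of all tested genes. DESeq2 and limma voom called 0 members as well, with 1 (Rab27b) and 0 at an unadjusted p under 0.05. The count of members called was also 0 without KO 1 and WT 2 together, the libraries with the lowest neutrophil and cell cycle markers of their genotype. The 7 members not tested were Rab25, Rab26, Rab39b, Rab3b, Rab3c, Rab40b and Rab9b, whose highest count in any library was 20.

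Fold changes of the members were small and centred near 0. The median log2 fold change (KO minus WT) was -0.01 over the 51 tested members, with 24 above 0, beside a median of 8.37e-05 over all tested genes, of which 6308 of 12605 were above 0. The 95% interval lay within a 1.5-fold change in either direction for 37 of the 38 members averaging 10 CPM or more (97.4%, beside 96.1% of the 8443 tested genes at that level), and within 1.2-fold for 29 (76.3%, beside 59.2%). That level is a lower bound only, and the genes were not matched to the members in abundance. For these 38 members the log2 fold changes ran from -0.15 to 0.16. The exception at 1.5-fold was Rab44, with an interval from -0.68 to 0.38. For the members between the test filter and 10 CPM the intervals reached beyond 1.5-fold, except that of Rab23, from -0.25 to 0.47. The widest, from -2.38 to 0.78, was that of Rab15, a recycling endosome GTPase averaging 0.184 CPM in KO against 0.326 in WT. In such members differences of this size were not detectable at this depth and this spread between libraries.

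**Figure D2:**
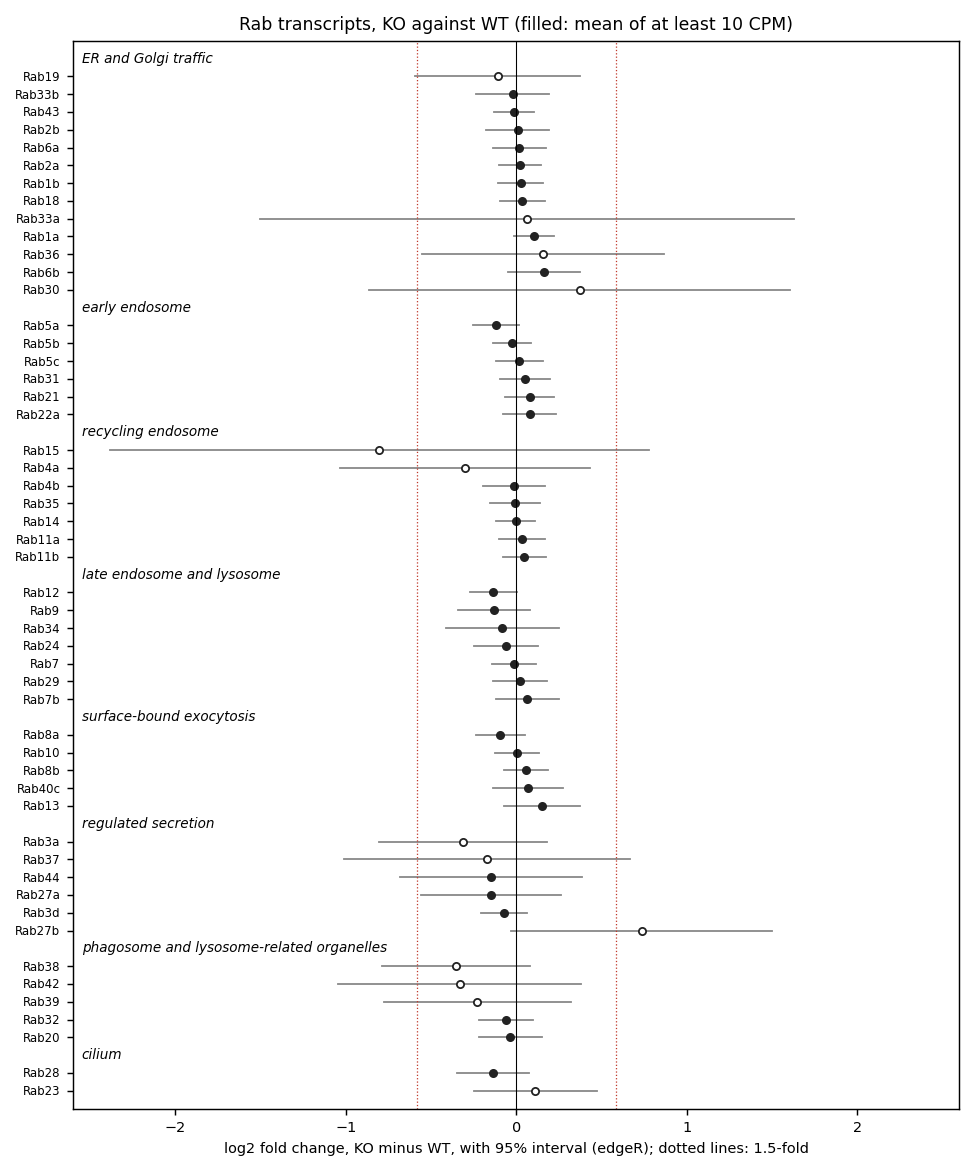
Log2 fold change (KO minus WT, edgeR) with its 95% interval for the 51 tested Rab transcripts, grouped by site of action; filled points have a mean of at least 10 CPM and dotted lines mark a 1.5-fold change. All intervals include 0, and all filled points except Rab44 have intervals inside the dotted lines.

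The genotypes were free of overlap in 5 of the 51 tested members, which is 9.80%, beside 8.65% of all tested genes. Rab12, Rab5a and Rab38 were lower in KO (3 members, beside 4.59% of all tested genes) and Rab1a and Rab13 were higher (2 members, beside 4.05%). Rab12, a GTPase of receptor degradation and recycling, had the smallest p of the family. It was at 55.1, 53.1 and 55.1 CPM in KO 1 to 3 and at 60.6, 61.3 and 57.4 CPM in WT 1 to 3. The gap between the genotypes was thus 55.1 against 57.4 CPM at its narrowest, and the log2 fold change was -0.13 ± 0.06 (standard error, edgeR adjusted p = 0.999949). Rab12 lies on chromosome 17, 66494512 to 66519750 (GRCm38.p6, the assembly of mm10).

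Rab5a, which drives fusion of early endosomes, was at 77.8, 71.6 and 74.1 CPM in KO and at 78.5, 84.4 and 80.0 CPM in WT. KO 1 and WT 1 nearly touched, and the log2 fold change was -0.12 with a 95% interval from -0.26 to 0.01. The other Rab5 genes showed no such order. Rab5b averaged 199 ± 3.62 CPM in KO against 203 ± 3.67 in WT, and Rab5c 329 ± 15.7 against 325 ± 19.6 (SD, n = 3 each). Per kilobase, Rab5c was between 4.32 and 5.74 times and Rab5b between 1.82 and 2.10 times above Rab5a. These ranges cover the libraries and not the choice of length. With the exonic length over all annotated transcripts, Rab5c, Rab5b and Rab5a averaged 149, 47.9 and 14.7 CPM per kilobase, which sets Rab5a further below the others. Of the 6 members of the early endosome, 4 had a log2 fold change above 0 and 0 passed, with a median of 0.03.

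Promoter sequences were read for the family, and the stretches below are shown because they share an element that few promoters hold. RefSeq promoter windows (GRCm38.p6, 250 bases before to 50 after an annotated start site) were at hand for 47 members, some with several start sites, 59 windows in all. The start site lay at the outer end of the annotated gene in 32 windows and elsewhere in 27. They were searched on both strands for 4 motifs. TCACGTGA, the palindromic core of the CLEAR element that TFEB and its relatives bind in lysosomal genes, was in 3 windows (5.08%), those of Rab5a, Rab21 and Rab24. It was in 0.974% of all 32851 windows and in 2.22% of the windows of tested genes with at least 10 CPM. Its inner E-box, CACGTG, which overlaps it in these 3, was in 10.2% of member windows, beside 7.15% of all windows and 10.6% of those of tested genes with at least 10 CPM. GAGGAAG, a PU.1-type motif, was in 13.6% of member windows and 13.6% of all windows, and TGACTCA, the AP-1 motif, in 5.08% and 5.2%. In the windows of tested genes with at least 10 CPM the shares were 14.4% for GAGGAAG and 3.76% for TGACTCA. A match describes the letters in the window and is not a measured site. The stretches of 100 bases that hold the CLEAR core are printed 5′ to 3′ on the strand of the gene, with the core in capitals.
Rab5a (chr17:53479134-53479233, plus strand): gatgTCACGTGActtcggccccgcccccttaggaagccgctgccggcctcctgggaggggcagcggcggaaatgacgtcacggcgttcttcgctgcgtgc
Rab21 (chr10:115315592-115315691, minus strand): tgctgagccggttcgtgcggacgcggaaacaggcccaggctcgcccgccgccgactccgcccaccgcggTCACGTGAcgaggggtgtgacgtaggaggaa
Rab24 (chr13:55321972-55322071, minus strand): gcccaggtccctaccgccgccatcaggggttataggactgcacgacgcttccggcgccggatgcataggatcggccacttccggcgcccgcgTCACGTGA

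The core begins 96 bases before the start site of Rab5a and 31 bases before that of Rab21, and at transcribed base 2 of Rab24. The start site of this Rab21 window lies 1828 bases inside the annotated gene, while those of Rab5a and Rab24 are at the outer end of theirs. The 3 genes did not share a direction between KO and WT. Rab21, a GTPase of integrin uptake at early endosomes, was at 66.2, 66.6 and 70.0 CPM in KO and at 64.8, 60.1 and 67.3 CPM in WT, with overlapping groups and a log2 fold change of 0.08 (standard error 0.07), or 0.03 without WT 2. Rab24, a GTPase linked to autophagy, was at 54.2, 51.5 and 44.2 CPM in KO and at 53.1, 48.9 and 54.3 CPM in WT, with a log2 fold change of -0.06. Exons of Rab24 overlap those of Prelid1 on the opposite strand over 1258 bases in GENCODE, and whether reads were counted by strand is not known.

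In ER and Golgi traffic, Rab1a was higher in each KO library. Its values were 394, 372 and 383 CPM in KO and 357, 365 and 347 CPM in WT, so that KO 2 and WT 2 were the closest. The log2 fold change was 0.10 with a 95% interval from -0.01 to 0.22. Rab1a lies on chromosome 11, 20201412 to 20226856. Its close relative Rab1b was at 188, 201 and 201 CPM in KO and at 200, 182 and 198 CPM in WT, with overlapping groups. Rab6b, a Golgi GTPase best known from neurons, was at 33.1, 30.6 and 25.8 CPM in KO and at 26.3, 27.5 and 26.2 CPM in WT, and KO 3 lay below all WT libraries. Rab6a, the widely expressed form, was at 95.6 ± 8.52 CPM in KO against 94.3 ± 1.86 in WT (SD, n = 3 each). Of the 13 tested members of ER and Golgi traffic, 10 had a log2 fold change above 0 and 0 passed, with a median of 0.03.

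Members of the late endosome and lysosome had a median log2 fold change of -0.06, with 2 of 7 above 0 and 0 that passed. Rab7 (chromosome 6, 87999106 to 88045270) was at 665, 710 and 692 CPM in KO and at 727, 668 and 690 CPM in WT, and its 95% interval of -0.14 to 0.12 was among the narrow ones. Rab7b, which carries cargo from endosomes to the Golgi, was at 282, 310 and 353 CPM in KO and at 311, 278 and 314 CPM in WT, with the lowest value of its genotype in KO 1 and in WT 2. Rab9, which acts in return of receptors from late endosomes to the Golgi, was at 34.1, 27 and 29.4 CPM in KO and at 32.7, 35.2 and 31.1 CPM in WT, with overlapping groups. Of the transcript sequence of Rab7, 14.5% of its 50-base words also occur in the pseudogene Rab7-ps1, so counts of Rab7 are uncertain where such reads were placed elsewhere.

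Among GTPases of transport to the cell surface, 4 of 5 tested members had a log2 fold change above 0 and 0 passed. Rab13, known from epithelial junctions, was at 14.3, 14.2 and 14.3 CPM in KO and at 12.5, 13.5 and 12.6 CPM in WT. All KO libraries lay above all WT libraries, at a log2 fold change of 0.15 ± 0.10 (standard error). Rab8a was at 140, 131 and 122 CPM in KO and at 144, 142 and 133 CPM in WT, and Rab8b at 623, 565 and 621 CPM in KO and at 578, 589 and 574 CPM in WT. Both overlapped between genotypes, and their log2 fold changes were -0.09 and 0.06. Rab10, which acts in insertion of receptors such as Tlr4 into the surface, was at 209 ± 11.3 CPM in KO against 209 ± 7.27 in WT (SD, n = 3 each). In the recycling endosome, Rab14 was at 305, 295 and 305 CPM in KO and at 304, 307 and 296 CPM in WT, with a 95% interval from -0.12 to 0.11. Of the 7 recycling members tested, 2 were above 0 and 0 passed. Of the cilium-linked members, Rab28 was at 18.8, 18.3 and 19.3 CPM in KO and at 22.4, 18.7 and 20.9 CPM in WT, with KO 1 and KO 3 above WT 2. Rab23 had a log2 fold change of 0.11.

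All 5 tested members of phagosomes and lysosome-related organelles had log2 fold changes below 0, with a median of -0.23, and none passed. Rab38, which with Rab32 delivers cargo to melanosomes and related organelles (chromosome 7, 88430273 to 88491572), was at 3.29, 3.27 and 3.23 CPM in KO and at 4.50, 3.89 and 4.12 CPM in WT. The groups did not overlap, and the log2 fold change was -0.35 ± 0.20 (standard error), a 95% interval from -0.79 to 0.08. Per kilobase Rab32 was between 8.83 and 12.6 times above Rab38, and it averaged 53.5 ± 2.47 CPM in KO against 55.7 ± 4.06 in WT (SD, n = 3 each). Rab20, which acts in maturation of phagosomes, was at 22.5 ± 0.350 CPM in KO against 23.1 ± 1.33 in WT (SD, n = 3 each). The remaining members of this group, Rab42 and Rab39, had log2 fold changes of -0.33 and -0.23 at means of 1.80 and 3.27 CPM. Both overlapped between genotypes, with 95% intervals from -1.04 to 0.38 and from -0.77 to 0.32.

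**Figure D3:**
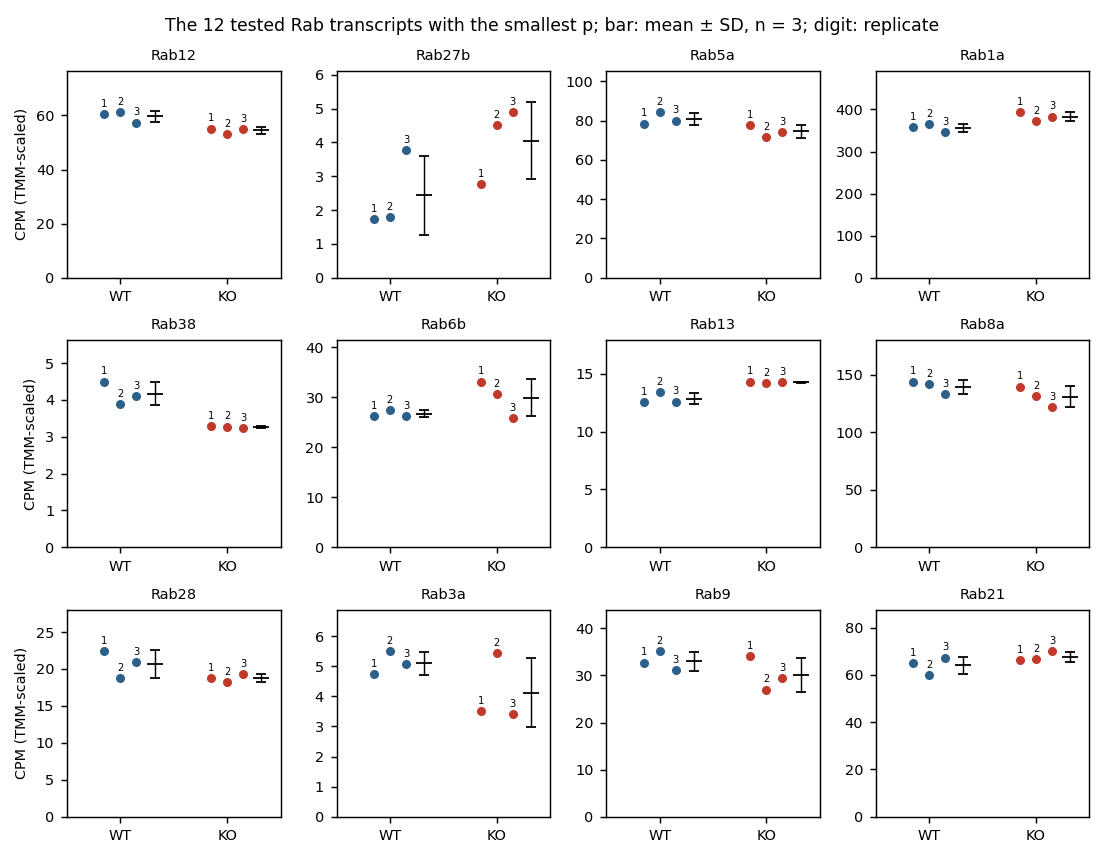
CPM in each WT and KO library for the 12 tested Rab transcripts with the smallest p, with the replicate number at each point and the mean ± SD (n = 3) beside the points; each axis starts at 0. Rab12, Rab5a, Rab1a, Rab38 and Rab13 separate by genotype, and the other 7 overlap.

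Regulated secretion held Rab27b, Rab37 and Rab44, the 3 members of at least 1 CPM that varied most between libraries of the same genotype. Of its 6 tested members, 1 had a log2 fold change above 0 and 0 passed, with a median of -0.15. Rab27b had the most positive log2 fold change, with WT at 2.43 ± 1.16 CPM and KO at 4.05 ± 1.14 CPM (SD, n = 3 each), but that value, 0.74, had a 95% interval from -0.03 to 1.5. Its values were 2.76, 4.51 and 4.90 CPM in KO and 1.73, 1.78 and 3.77 CPM in WT, so that WT 3 lay above KO 1. Without WT 3 the log2 fold change was 1.21 and without WT 1 it was 0.54, and neither passed (edgeR, adjusted p from 0.91 to 1 over the 14 alternatives). Rab27a, which with Rab27b docks secretory granules, was at 13.0, 19.1 and 18.8 CPM in KO and at 16.5, 16.8 and 23.0 CPM in WT. It did not follow Rab27b between genotypes, and its log2 fold change was -0.15. The ratio of Rab27a to Rab27b per kilobase was between 9.13 and 11.2 in KO and between 14.5 and 22.6 in WT, without overlap. Of 14 such ratios between related members computed, those of Rab5b to Rab5a and Rab32 to Rab38 were also free of overlap. The same was not computed for other gene pairs, so nothing is read from the number.

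Rab44, a large Rab with extra domains that is known from immune cell granules, was at 21.2, 27.5 and 27.9 CPM in KO and at 27.2, 20.7 and 37.1 CPM in WT. Its lowest libraries were KO 1 and WT 2 and its highest was WT 3. Rab37, a secretory Rab of mast cells and macrophages, was at 0.901, 2.29 and 1.59 CPM in KO and at 1.60, 1.51 and 2.29 CPM in WT, with the same libraries lowest in each genotype. Rab3a was at 3.50, 5.44 and 3.40 CPM in KO and at 4.74, 5.5 and 5.06 CPM in WT, with KO 2 above WT 1. The summed markers of mast cells and basophils had the same lowest libraries, with 7.74 CPM for KO 1 and 10.9 CPM for WT 2. They were highest at 22 CPM in WT 3. Most of that sum was Kit and Hdc, at means of 5.88 and 6.73 CPM. The other markers of the list in the data, Cpa3, Mcpt8, Prss34 and Ms4a2, had means under 1 CPM. Within WT these were lowest in WT 1, not in WT 2. The summed cell cycle genes reached 535 CPM in KO 1 and 497 in WT 2, against 638 to 845 CPM in the other libraries. The part of these marker sets in the values of Rab44 and Rab37 was not tested. Nor was it tested for Rab27a, which was lowest in KO 1 but, within WT, in WT 1.

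**Figure D4:**
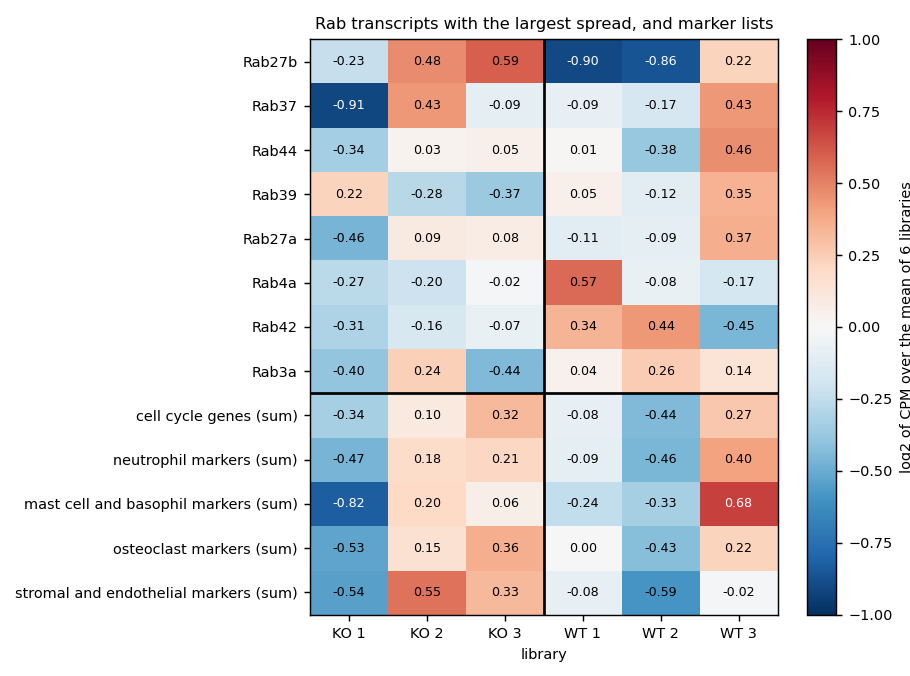
Log2 of CPM over the mean of the 6 libraries for the 8 Rab transcripts of at least 1 CPM with the largest spread within genotypes, and for 5 summed marker lists, in each library. Rab44, Rab37 and the marker lists are lowest in KO 1 and WT 2 within their genotype, while Rab42 and Rab3a are highest in WT 2.

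Most of the more abundant members varied little between libraries. The coefficient of variation, averaged over both genotypes, had a median of 4.45% for the 38 members with at least 10 CPM, beside 6.30% for the 8443 tested genes at that level. It was under 10% for 35 of these members, and the exceptions were Rab44 at 21.9%, Rab27a at 20.0% and Rab34 at 13.5%. KO 1 and WT 2 were both the lowest library of their genotype for 7 of the 38 members (18.4%, beside 19.9% of genes at that level) and both the highest for 14 (36.8%, beside 24.8%). The genes at that level share only the lower bound of 10 CPM and were not matched to the members in abundance.

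No gene of the machinery that drives the Rab cycle passed the test of KO against WT. Of 153 tested GEFs, GAPs, effectors and genes of GDP dissociation, escort and prenylation, 0 passed (beside 0.0317% of all tested genes) and 0 were under an unadjusted p of 0.05 (beside 3.10%, edgeR). Their median log2 fold change was 0.00278, with 77 above 0. DESeq2 and limma voom also called 0. The genotypes were free of overlap in 10 of the 153, which is 6.54%, below the 8.65% of all tested genes. Gdi2, a GDI, was at 705 ± 20.1 CPM in KO against 722 ± 35.4 in WT (SD, n = 3 each). Rabggtb, the catalytic beta subunit of the transferase that attaches the lipid, had a log2 fold change of -0.11, or from -0.17 without KO 1 to -0.05 without WT 2. Arl6ip5, a relative of the prenylated Rab acceptor, had 0.07, or 0.00709 without WT 1.

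Of 42 tested GEFs, 18 were above 0. Rgp1, a subunit of the exchange factor for Rab6, was at 65.3 ± 2.18 CPM in KO against 71.0 ± 1.60 in WT (SD, n = 3 each), a log2 fold change of -0.12. Hps4, a subunit of the exchange factor for Rab32 and Rab38, was at 29.6 ± 0.475 CPM in KO against 26.5 ± 2.12 in WT (SD, n = 3 each), a log2 fold change of 0.16. Both were free of overlap. Of 37 tested GAPs, 19 had a log2 fold change above 0, and Sgsm3, Tbc1d8 and Evi5 had log2 fold changes of 0.20, -0.10 and 0.10. Of 65 tested effectors, 34 were above 0. Mical2, an enzyme that oxidises actin, had 0.27, Osbpl1a, a sterol sensor that binds Rab7, had -0.16, and Sytl1, a Rab27 effector averaging 0.455 CPM in KO against 0.760 in WT, had -0.73 with a 95% interval from -1.72 to 0.26.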

How the data were processed

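The labels' protocols give TRIzol extraction and a VAHTS Universal V6 library kit. The deposited values are whole-number read counts for 16519 genes in 6 libraries. The submitters' processing notes name fastp, HISAT2, HTSeq and mm10 without roles or order. On tool versions, gene annotation, strand setting and gene filters the sources used here give nothing, so reads of overlapping genes and of near-identical copies are uncertain. Exons of 20 members overlap another GENCODE gene, and 4 members share over 10% of their 50-base words with another gene.

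From these counts, edgeR 4.0.16 in R 4.3.3 (TMM factors, filterByExpr by genotype with minimum count 10, robust quasi-likelihood fit, F test of KO minus WT) was run over all genes, with Benjamini-Hochberg adjustment over 12605 genes and a threshold of 0.05. Values are CPM on TMM-scaled library sizes. A count of 3 equals 0.0730 to 0.0813 CPM, which covers counting error only. Intervals are at 95%. With 3 against 3 libraries an exact permutation test cannot go below p = 0.1, and none is given. Levels between genes use exonic bases of the GENCODE M21 basic set. Positions and promoters come from RefSeq on GRCm38.p6, and all 58 members matched by Entrez Gene ID. Library pairs of a genotype differed by 9.99 to 29.4 chi-square per degree of freedom, so each counted once.

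Named were Trmt61a, the 12 tested members with the smallest p, the 6 with the highest level per kilobase, and the 3 genes with the smallest p in each of 4 lists of regulators, some of which are not reported here. Related members were set beside them, and others, such as Rab44 and Rab24, and the 4 promoter motifs were chosen after values were seen. The members and lists were chosen with earlier results of these data known. Alternatives were DESeq2 1.42.0, limma voom (limma 3.58.1), other scalings, other count filters, a replicate block and leaving out each library. Leaving out KO 1 and WT 2 together and the other transcript lengths were added after seeing the data.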

Additional observations from a re-analysis of the deposited data

How the results depend on the processing

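No Rab member and no regulator or effector of the pathway lists was called by any of the 14 alternatives. The number of members above 0 ran from 22 of 48 tested with the stricter low-count filter to 30 of 52 without KO 1. With no low-count filter it was 28 of 58. None of the 405 refits of the 29 named members and regulators was called. The smallest adjusted p among these refits was 0.87. The number of genes called over all genes was 4, 16 with DESeq2 and 8 with the replicate block, and between 3 and 5 when a library was left out. The median log2 fold change of the members, -0.00816, ran from -0.0113 to 0.0192 when a library was left out, the highest value coming without KO 1. Trmt61a was called in all, with log2 fold changes from -3.11 to -2.84. Members at an unadjusted p under 0.05 numbered 0 to 3, the most without KO 1 (Rab27b, Rab5a and Rab9). The sign of 24 of the 51 tested members turned under at least 1 alternative, among them 10 without KO 3 and 8 without WT 2, so the counts of members above 0 are not firm. Of the 29 named genes, 18 moved by over 1.5 times when a library was left out and 4 turned sign. Rab14, at -0.0169 without WT 3, was at 0.00119 with no low-count filter, 0.0144 without KO 2, 0.00235 without WT 1, 0.00609 without WT 2 and 0.00179 without KO 1 and WT 2. Rab7 ran from -0.0437 without WT 2 to 0.0117 without KO 1 and 0.0208 without WT 1. Rab5c ran from -0.0312 without WT 2 and -0.00999 without KO 2 to 0.0587 without WT 3, and Rab1b from -0.0193 without WT 2 to 0.0578 without KO 1. The cause was not tested. Replicate numbers are shared by the genotypes, but deviations of same-numbered libraries correlated at 0.0354, -0.186 and 0.36 across 12605 genes, so the numbers were not taken as a pairing. The replicate block called 0 members. For members under 10 CPM other than Rab23, the depth and the spread between libraries leave wide intervals.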
